A study of Mus musculus with 70 samples.

Results

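Collagen chain genes were described in bulk RNA sequencing of medulloblastomas of the Sonic hedgehog type, which arise in the cerebellum, from 2 mouse models. Members were taken in each model's count table as gene rows whose symbol reads Col, a number, a and a number, with a mean of at least 0.5 CPM (counts-per-million) over that table's libraries. This gave 41 of 44 collagen chain rows in each table, among 17576 gene rows above the same level in the SmoM2 table and 15588 in the Lazy Piggy table. The tables shared 40 members, with Col24a1 a member in SmoM2 tumours only and Col10a1 in Lazy Piggy tumours only. Just inside the limit lay Col14a1 (0.688 CPM) in SmoM2 tumours and Col6a6 (0.543 CPM) and Col10a1 (0.547 CPM) in Lazy Piggy tumours. Just outside lay Col6a5 (0.279 CPM) in SmoM2 tumours and Col24a1 (0.269 CPM) in Lazy Piggy tumours, and Col6a4 lay below it in both.

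In the SmoM2 model, Math1-Cre turns on SmoM2, an active Smoothened, in cells of the granule neuron lineage. All 10 of those tumours carry both alleles, with 3 labelled Kcnb2 knockout and 7 labelled Kcnb2 wild-type. Kcnb2 codes for a subunit of a potassium channel opened by voltage. All Lazy Piggy tumours carry a Ptch1 allele, the SB100 transposase driven by Nestin, Nestin-Cre, a Cre-dependent PBERT2 transposase at Rosa26 and the Lazy Piggy transposon, with 29 labelled as given tamoxifen, which activates PBERT2, and 30 as not. Ages are not given in the labels, and neither is whether each tumour came from its own mouse, so each p-value covers only how these libraries vary among themselves. Totals per library were 32838448 to 39387125 counts in Kcnb2 knockout tumours and 23923453 to 33959857 in wild-type tumours, 6256214 to 8470896 with tamoxifen and 5869618 to 8667344 without it. Summed granule lineage markers, among them Atoh1 and Gli1, lay between 3211 and 5829 CPM in all 69 labelled tumours.

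Kcnb2 checks the genotype labels. It had 11.1, 13.7 and 10.0 CPM in the knockout tumours, against 42.0, 40.0, 8.44, 47.0, 39.2, 27.6 and 22.5 CPM in wild-type replicates 1 to 7. The third wild-type value is below every knockout value, and that tumour's title ends as the knockout titles do, while its genotype field and its column name say wild-type. It is therefore called the library labelled wild-type replicate 3, and fold directions draw on it as labelled. Without it 0 members were called as well, and 2 in place of 6 were lower at an unadjusted p of 0.05. The share of all genes lower in that fit is not given. The knockout tumours and the first 3 wild-type libraries have titles that start with a number, and the other 4 wild-type titles take another form. Title form was therefore a term of the fit, which sets 3 knockouts against 3 wild-type libraries. What the title form stands for is not given. By Y-linked genes, all 3 knockout tumours were female, while 4 wild-type tumours were female and 3 male. Sex was not a term of the main fit.

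Collagens are proteins of the extracellular matrix in which chains with repeated glycine wind into a triple helix. Fibrillar types build fibres and are made mostly by fibroblasts, basement membrane type IV forms a sheet around blood vessels and the brain surface, and the multiplexins join that sheet to the tissue around it. Fibril-associated types decorate fibres, type VI forms beaded filaments, and several members span the cell membrane. In the brain, such genes are active mainly in vessels and meninges, with some made by neurons and their precursors.

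In both models the collagens with most reads were those of basement membranes and 1 fibril-associated chain. Col4a1, a core basement membrane chain, was first by CPM, with a mean of 164 CPM over the SmoM2 tumours and 194 CPM over the labelled Lazy Piggy tumours. Per kilobase of exon the first place went to Col9a3, a chain of type IX, a collagen best known from cartilage, with 32.1 CPM per kilobase in SmoM2 and 35.3 in Lazy Piggy tumours, against 22.0 and 26.0 for Col4a1. Markers of cartilage summed to 4.53 to 16.6 CPM over 7 genes in SmoM2 tumours and 0.699 to 19.0 CPM in Lazy Piggy tumours. The ranges of Col9a3 and Col4a1 per kilobase overlapped across tumours in each model, so their order was not the same in every tumour.

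The 12 members with most reads were nearly the same in both tables. After Col4a1 and Col9a3 came Col18a1, the multiplexin that holds endostatin, at a mean of 99.9 CPM in SmoM2 and 103 CPM in Lazy Piggy tumours, and Col4a2, the partner of Col4a1, at 87.6 and 103 CPM. Next were Col3a1, a fibrillar chain of soft tissue (65.0 and 67.3 CPM), Col11a1, a minor fibrillar chain (45.9 and 62.5 CPM), and Col1a2 of type I (42.8 and 44.9 CPM). Then followed Col12a1, a fibril-associated chain (32.8 and 22.7 CPM), Col15a1, the other multiplexin (30.4 and 34.6 CPM), Col5a2, which nucleates fibres (28.5 and 29.2 CPM), and Col1a1 of type I (19.6 and 29.5 CPM). Beside these 11 shared members, the first 12 held Col4a5 in SmoM2 tumours, at 22.9 CPM, and Col6a1 in Lazy Piggy tumours, at 21.1 CPM. At the low end, Col14a1, Col22a1, Col4a3 and Col6a6 stayed near 1 CPM in each model.

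**Figure D1:**
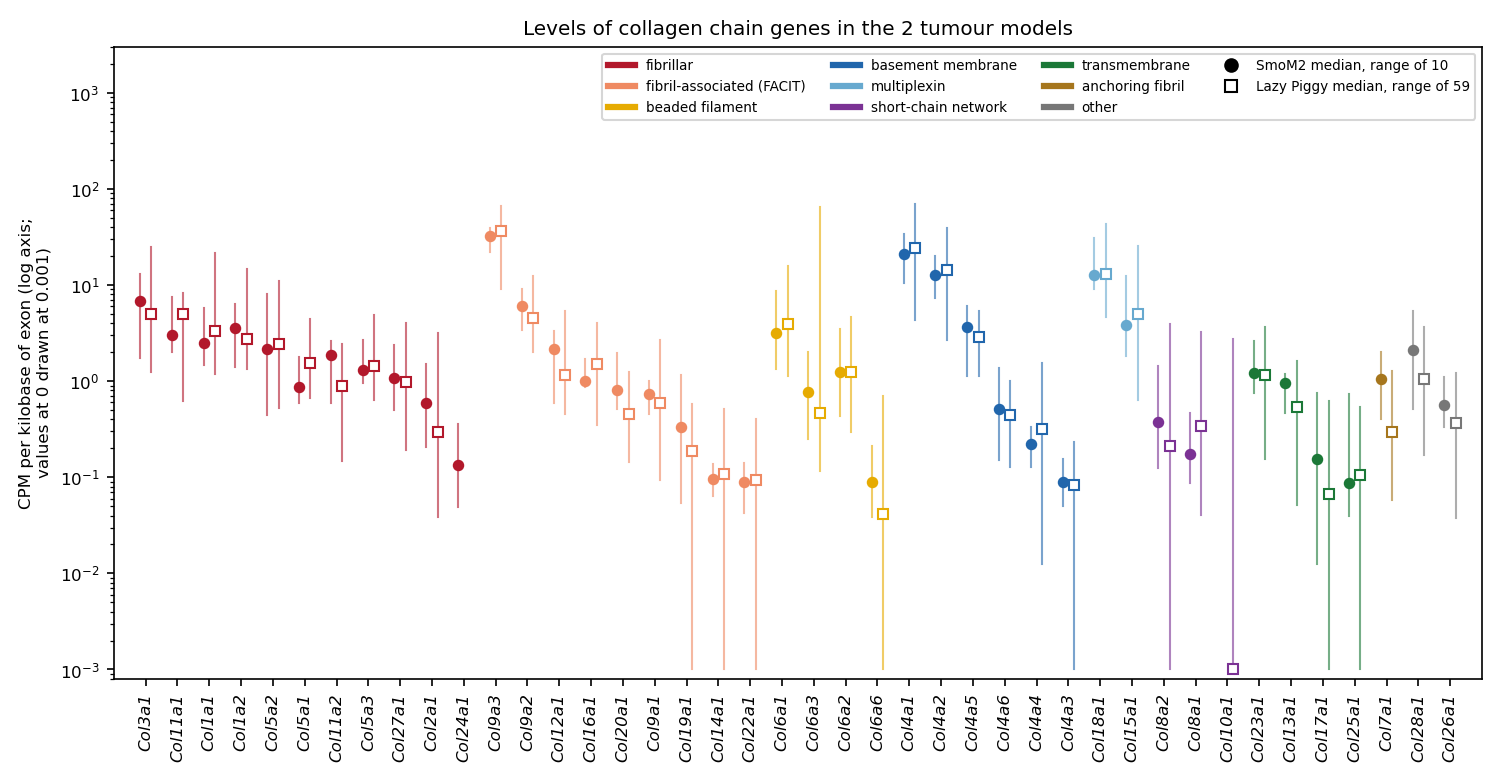
Levels of each collagen member, grouped by class, as CPM per kilobase of exon on a log axis; points are medians over the 10 SmoM2 tumours (filled) or the 59 labelled Lazy Piggy tumours (open), and lines run over all tumours. Medians of the same gene lie close in both models, and the Lazy Piggy line of Col6a3 reaches far above its median.

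Median CPM of the 40 shared members had a Spearman correlation of 0.957 between the models, across genes, which are not independent replicates. For 35 of the 40 the medians were within 2-fold. The largest ratio was that of Col7a1, the anchoring fibril collagen of the skin, with 10.9 CPM in SmoM2 and 3.07 CPM in Lazy Piggy tumours, a ratio of 3.56. The libraries of the 2 models overlapped for all 40 members. No value over all genes is given beside these, so the likeness is not read as particular to collagens. Model and table, with its own depth, cannot be told apart, so no test was made.

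The first comparison asked how collagen levels differ in tumours without Kcnb2. Lower levels in the 3 knockout tumours than in 6 of the 7 wild-type tumours were seen for several members. Among them were Col3a1, Col1a2, Col6a1, Col6a2, Col6a3, Col4a1, Col4a2 and Col4a5. Col9a2, Col11a2 and Col17a1 had higher levels in the knockouts than in all 7. The share of all genes lower than in 6 of the 7 is not given, so that order is not read as particular to collagens. No member passed an adjusted p of 0.05 in edgeR's quasi-likelihood test. Of the 41 members 0 were called, and 0% of all 19864 genes tested, while DESeq2 called 0 members and 9 genes in all. At an unadjusted p of 0.05, 9 members differed (22%, against 8.47% of all genes), with 6 lower (14.6%, against 3.99%) and 3 higher (7.32%, against 4.48%). The count of lower members ran from 1, without knockout replicate 1 or wild-type replicate 2, to 14, without wild-type replicate 1. It was 18 without title form as a term. Shares of all genes in those fits are not given, so these counts are not set against the 3.99%. Fold changes were negative for 25 members and positive for 16, with a median log2 fold change of -0.33, against 0.0017 for all genes tested. In bulk tissue, fewer cells of a type and less RNA per cell cannot be told apart.

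Summed over all 41 members, collagen reads came to 661, 675 and 690 CPM in the knockout tumours, against 586, 1183, 983, 832, 1264, 1268 and 1361 CPM in wild-type replicates 1 to 7. The knockout sums lay close together and below 6 wild-type sums, and wild-type replicate 1 was the lowest of all 10. That tumour lay below the median of the 10 libraries for 36 of the 41 members, with Kcnb2 at the level of the other high wild-type tumours. The library labelled wild-type replicate 3, with low Kcnb2, lay below it for 7 members.

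Among fibrillar chains, Col3a1 (ENSMUSG00000026043) had the smallest p. It had 21.4, 25.3 and 17.0 CPM in knockout tumours, against 25.2, 102, 77.8, 59.6, 118, 74.1 and 129 CPM in wild-type tumours. All knockout values lay below 6 of the wild-type values, and wild-type replicate 1 lay between the upper knockout values. The log2 fold change was -1.68 ± 0.45 (SE), with p = 0.0039 and an adjusted p of 0.566 in edgeR. Without wild-type replicate 1 it was -2.07 (adjusted p = 0.267 in edgeR), and without the library labelled wild-type replicate 3 it was -1.58 (adjusted p = 0.838 in edgeR).

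Both type I chains had a negative fold change, and the difference between them was not tested. Col1a2 had 24.4, 30.9 and 17.5 CPM in knockout tumours, against 24.1, 50.03, 48.7, 57.2, 55.8, 40.7 and 78.2 CPM in wild-type tumours. Again wild-type replicate 1 sat among the knockouts, and the other wild-type tumours lay above all of them. Col1a1 had 11.9, 15.1 and 9.75 CPM in knockout tumours, against 12.6, 19.1, 11.5, 34.4, 26.2, 18.0 and 37.7 CPM in wild-type tumours. Here both wild-type replicate 1 and the library labelled wild-type replicate 3 lay among the knockouts. For Col1a2 the log2 fold change was -0.74 ± 0.32 and that of Col1a1 was -0.23 ± 0.31, both with edgeR's adjusted p at 0.566 or more. In all, 8 of 11 fibrillar members had a negative fold change and 3 a positive one, and of these Col11a2, a minor chain of type XI, did not overlap, with 14.8 to 18.1 CPM in knockout and 4.04 to 14.4 CPM in wild-type tumours (log2 fold change 0.76 ± 0.41, edgeR adjusted p = 0.568). Its partner Col11a1 went the other way, at -0.67 ± 0.37.

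The window before the start of Col3a1 is shown because that gene had the smallest p here, with those of Col6a2 and Col6a3 because these chains share a trimer and part ways in 1 tumour described below. Each run holds the 250 bases before the RefSeq start on GRCm38.p6, and none overlaps an exon of GENCODE M21. They lie at chr1:45311288-45311537 on the plus strand (Col3a1), chr10:76623631-76623880 on the minus strand (Col6a2, the farther upstream of its RefSeq starts) and chr1:90843972-90844221 on the minus strand (Col6a3). Capitals mark TATAAA, which was searched on both strands together with CCAAT.
Col3a1: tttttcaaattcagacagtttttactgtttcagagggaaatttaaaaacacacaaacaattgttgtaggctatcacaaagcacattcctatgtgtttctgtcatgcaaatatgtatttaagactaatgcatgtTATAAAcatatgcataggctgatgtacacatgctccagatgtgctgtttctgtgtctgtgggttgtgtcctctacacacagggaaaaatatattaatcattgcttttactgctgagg
Col6a2: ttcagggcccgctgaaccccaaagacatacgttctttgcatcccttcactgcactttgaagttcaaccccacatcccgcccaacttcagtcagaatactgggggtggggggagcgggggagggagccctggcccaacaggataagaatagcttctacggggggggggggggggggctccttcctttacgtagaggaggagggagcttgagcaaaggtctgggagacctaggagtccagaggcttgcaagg
Col6a3: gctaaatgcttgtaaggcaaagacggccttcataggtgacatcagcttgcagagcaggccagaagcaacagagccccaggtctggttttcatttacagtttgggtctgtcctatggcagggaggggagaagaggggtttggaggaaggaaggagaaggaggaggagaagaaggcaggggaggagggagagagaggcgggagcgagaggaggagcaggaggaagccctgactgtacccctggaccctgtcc
Col3a1 holds TATAAA once, and neither motif is in the letters of the other windows. TATAAA is in 12.4% of all 32851 RefSeq windows of this length and in 5 of 36 windows of members, and CCAAT is in 33.8% and in 12 of 36. The windows cover 33 of the 42 genes that are members in either table, and a match is a description only.

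Type VI collagen, the beaded filament, is built from Col6a1, Col6a2 and Col6a3. Col6a1 had 6.64, 7.10 and 5.84 CPM in knockout tumours, against 6.23, 18.8, 17.5, 14.8, 22.5, 12.8 and 38.1 CPM in wild-type tumours. Col6a3 had 3.41, 3.27 and 3.35 CPM in knockout tumours, against 3.02, 13.5, 9.52, 8.96, 15.7, 9.82 and 24.1 CPM. In both, the knockouts were tightly grouped, wild-type replicate 1 was with them and wild-type replicate 7 was highest. Log2 fold changes were -1.11 ± 0.46 for Col6a1, -0.9995 ± 0.52 for Col6a2 and -1.37 ± 0.51 for Col6a3, each with edgeR's adjusted p = 0.566. Without wild-type replicate 2 they were -0.85, -0.67 and -0.90. Another type VI chain, Col6a6, overlapped, at 0.482 to 0.891 CPM in knockout and 0.353 to 1.92 CPM in wild-type tumours. Per length, Col6a3 was 0.169 to 0.210 of Col6a1 in knockout and 0.178 to 0.281 in wild-type tumours, and these ranges overlapped.

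For basement membrane type IV, Col4a1 had 83.9, 84.1 and 108 CPM in knockout tumours, against 78.2, 224, 172, 141, 251, 253 and 246 CPM in wild-type tumours. Col4a2 had 55.4, 55.1 and 61.0 CPM in knockouts, against 48.8, 111, 95.7, 72.3, 125, 118 and 134 CPM. Col4a5, a chain of a second type IV trimer, had 8.71, 11.2 and 11.2 CPM in knockouts, against 7.60, 31.4, 26.8, 23.0, 35.1, 32.9 and 40.8 CPM. In all 3 genes, wild-type replicate 1 was the lowest of the 10 tumours and the other wild-type values lay above all knockouts. Log2 fold changes were -0.77 ± 0.33, -0.57 ± 0.28 and -1.07 ± 0.42, with an adjusted p of 0.566 in edgeR for each. Without wild-type replicate 2 they were -0.44, -0.33 and -0.72. Col4a3 and Col4a4, chains of the kidney and inner ear membrane, were near 0 in fold change (0.14 ± 0.41 and 0.07 ± 0.43). Of the multiplexins, Col15a1 had 11.7 to 16.3 CPM in knockouts and 12.6 to 79.6 CPM in wild-type tumours (-0.94 ± 0.50), and Col18a1 had 63.3 to 81.0 CPM and 75.2 to 219 CPM (-0.22 ± 0.29).

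**Figure D2:**
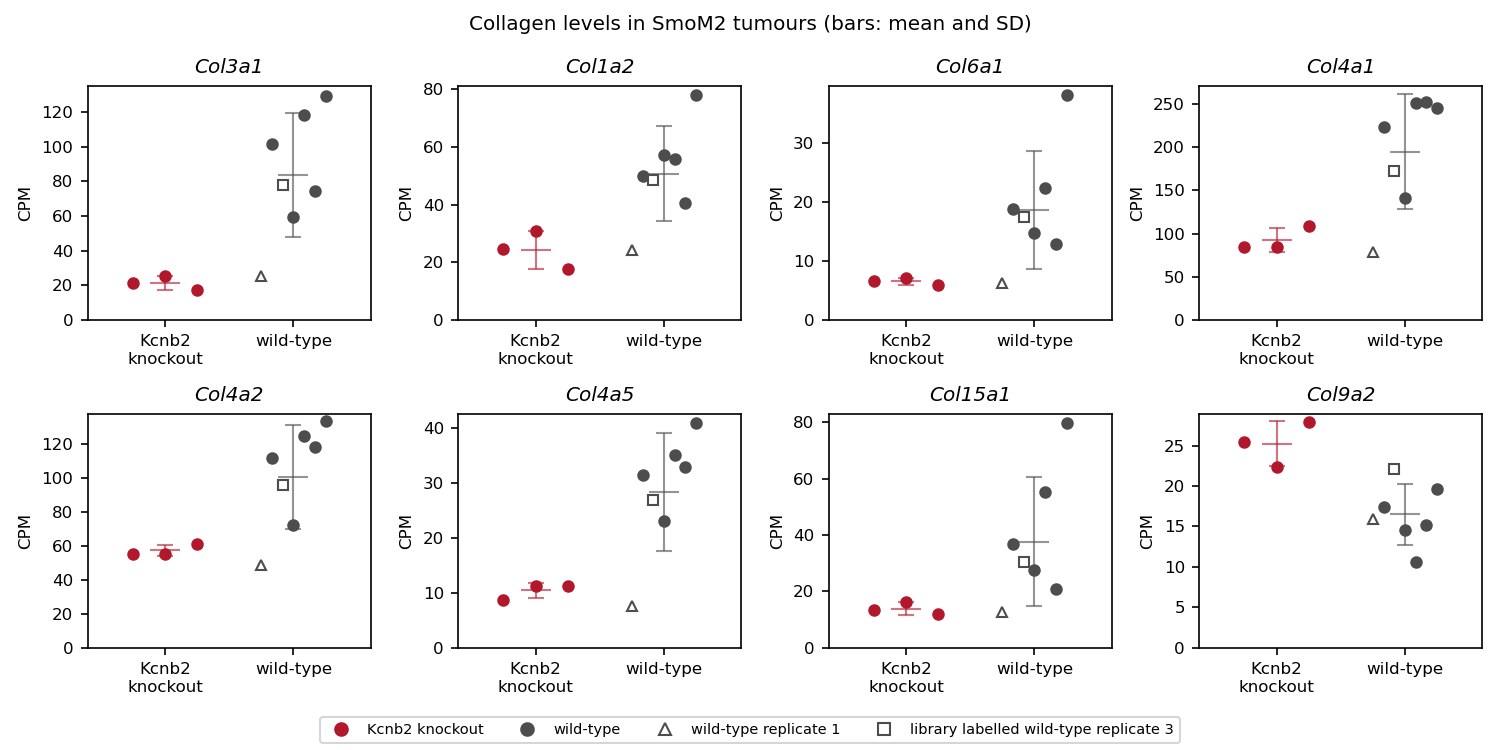
CPM of 8 collagen genes in each SmoM2 tumour, with Kcnb2 knockout (n = 3) left of wild-type (n = 7); bars give the mean and SD, the open triangle is wild-type replicate 1 and the open square the library labelled wild-type replicate 3. For Col3a1 the knockouts lie at 17.0 to 25.3 CPM and the triangle among them at 25.2 CPM, while the other wild-type tumours lie at 59.6 CPM or above; Col9a2 has the opposite order.

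Fibril-associated chains differed in direction, with 8 of 9 members positive and a class median of 0.20. Col9a2, a type IX chain, had 25.5, 22.3 and 28.0 CPM in knockout tumours, against 15.9, 17.5, 22.1, 14.5, 10.6, 15.2 and 19.7 CPM in wild-type tumours. All knockout values were above all wild-type values, and the library labelled wild-type replicate 3 came nearest. Its log2 fold change was 0.45 ± 0.22 (edgeR adjusted p = 0.566). Col9a3, with far more reads, had 117 to 149 CPM in knockout and 85.6 to 150 CPM in wild-type tumours (0.05 ± 0.18). Col20a1, a little studied member, had 6.27 to 10.0 CPM in knockouts and 2.67 to 6.46 CPM in wild-type tumours (0.78 ± 0.29, edgeR adjusted p = 0.566). Col12a1 was even, at 28.6 to 51.1 CPM and 9.11 to 49.0 CPM (0.04 ± 0.45).

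Membrane-spanning collagens were few in reads and mixed. Col17a1, the hemidesmosome collagen of skin, had 2.56, 4.54 and 2.62 CPM in knockouts and 0.0755 to 1.65 CPM in wild-type tumours, without overlap (1.47 ± 0.61, edgeR adjusted p = 0.566). Col25a1, a collagen of neurons, had 9.59, 2.32 and 0.812 CPM in knockouts and 0.509 to 1.88 CPM in wild-type tumours. Its fold change of 2.38 ± 0.77 rested largely on knockout replicate 1, and without that tumour it was 0.97. Markers of cells of normal cerebellum were measured beside these, and their part was not tested. For oligodendrocytes 9 of 9 had a positive fold change, and they summed to 937 to 4826 CPM in knockout and 150 to 3130 CPM in wild-type tumours. For Purkinje cells 6 of 6 were positive, with sums of 807 to 1492 CPM in knockout and 60.3 to 1398 CPM in wild-type tumours. For astrocytes 5 of 9 were positive and 4 negative. Among the other classes, Col26a1 was lower in every knockout, at 2.72 to 3.47 CPM against 3.65 to 8.99 CPM (-0.54 ± 0.30). Groups without overlap were thus found for 3 members with higher and 1 with lower knockout values, against 2.06% and 2.23% of all genes.

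Genes that work with collagens gave no call either. Of 16 basement membrane partners, 13 had a negative fold change with a list median of -0.64, among them the nidogens that tie laminin to type IV collagen, Nid2 (-1.02 ± 0.33) and Nid1 (-1.03 ± 0.39), and the laminin chain Lama4 (-1.14 ± 0.38). Of 14 genes of fibril-associated matrix, 12 were negative, with lumican (Lum), a proteoglycan that spaces fibres, at -1.66 ± 0.48. Over all 19864 genes tested, 9895 were negative. Wild-type replicate 1 was again with the knockouts for Nid1, at 65.0 CPM against 54.5 to 72.9 CPM in knockouts. It had 4.91 CPM of Nid2 against 3.90 to 5.33 CPM, and 3.11 CPM of Lum against 1.65 to 3.30 CPM. For genes of collagen folding and secretion 16 of 20 were negative with a median of -0.20, for maturation and crosslinking 9 of 12 (-0.26), for receptors 8 of 10 (-0.20), and for degradation 5 of 10 (0.05). At an unadjusted p of 0.05, 5 basement membrane partners, 4 matrix genes, 2 receptors, 1 folding gene and 1 maturation gene were lower, against 3.99% of all genes. All had an adjusted p of 0.566 or more in edgeR.

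Markers of several cell types were measured beside these collagens. Pericyte and mural markers summed to 215 to 241 CPM in knockout and 255 to 337 CPM in wild-type tumours, without overlap, with 8 of 10 tested markers negative. Endothelial markers summed to 185 to 202 CPM in knockout and 187 to 246 CPM in wild-type tumours, with 8 of 11 negative. Fibroblast and meningeal markers summed to 212 to 438 CPM in knockout and 344 to 427 CPM in wild-type tumours, with 8 of 12 negative, but most of that sum was Pdgfra, which oligodendrocyte precursors also express. In wild-type replicate 1 these sums were 270, 187 and 427 CPM. Choroid plexus markers were negative in 7 of 7 tested, with a median of -1.39, and summed to 138 to 225 CPM in knockout and 103 to 1020 CPM in wild-type tumours. The 1020 CPM came from the library labelled wild-type replicate 3, where Ttr alone had 463 CPM. Wild-type replicates 1, 5 and 7 had 127, 103 and 122 CPM, below every knockout sum, and replicates 2, 4 and 6 had 171, 186 and 396 CPM. Microglia and macrophage markers were negative in 9 of 10, with a median of -0.31, and summed to 198 to 334 CPM in knockout and 222 to 792 CPM in wild-type tumours. The part of these cells in the collagen levels was not tested.

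**Figure D3:**
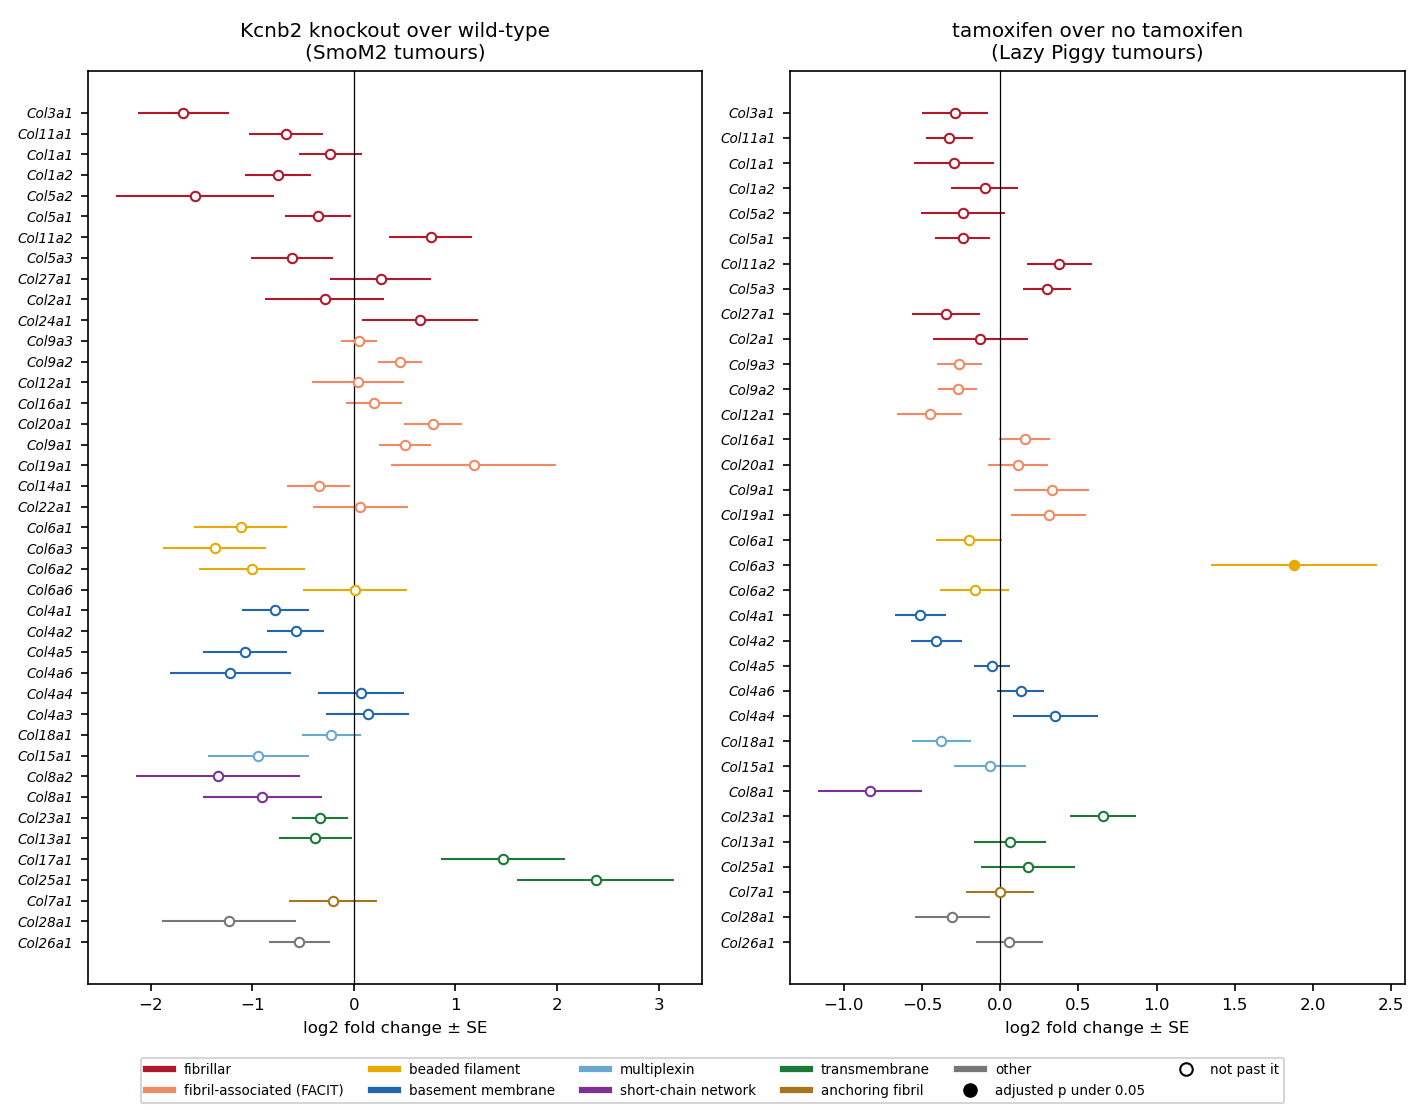
Log2 fold change with its SE from edgeR for every collagen member tested, coloured by class, for Kcnb2 knockout over wild-type (41 members, left) and tamoxifen over no tamoxifen (34 members, right). Only Col6a3 on the right is filled, which marks an adjusted p under 0.05, and that call rests on 1 tumour.

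The second comparison asked what differs in Lazy Piggy tumours after tamoxifen set the transposon moving again. A single collagen passed the test: Col6a3 (ENSMUSG00000048126) was higher, and its value came from 1 tumour. Of the 34 members with enough reads to be tested, 1 rose (2.94%, against 3.06% of the 13735 genes tested) and 0 fell (against 0.59%). At an unadjusted p of 0.05, 8 members differed (23.5%, against 19.5% of all genes), with 2 higher (5.88%, against 11.6%) and 6 lower (17.6%, against 7.91%), and those 6 include Col4a1 and Col4a2. The median log2 fold change of members was -0.11, against -0.013 for all genes tested. The other 7 members, from Col8a2 at 1.69 CPM down to Col6a6, did not pass the filter on low counts.

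Col6a3 ran from 1.39 to 778 CPM with a median of 4.78 CPM in tumours with tamoxifen, and from 1.86 to 32.3 CPM with a median of 7.13 CPM in tumours without it. Only 8 of the 29 tamoxifen tumours lay above the median without tamoxifen. The groups overlapped throughout, apart from tamoxifen replicate 28 at 778 CPM. The fitted log2 fold change was 1.88 ± 0.53 (edgeR adjusted p = 0.0335). Without tamoxifen replicate 28 it was -0.51 ± 0.26, in the opposite direction, with an adjusted p of 0.261 in edgeR. DESeq2, which replaces a count that stands apart in a large group by 1 based on the other libraries, gave -0.52 (adjusted p = 0.217). Without tamoxifen replicate 14, Col6a3 missed the threshold (edgeR adjusted p = 0.0542) and the genes called over the whole table numbered 138, against 501 with it.

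Its partners showed no such value. Col6a1 had 4.95 to 69.0 CPM with a median of 15.1 CPM with tamoxifen, and 5.48 to 61.0 CPM with a median of 18.6 CPM without (-0.20 ± 0.21). Col6a2 had 2.47 to 38.5 CPM with a median of 9.80 CPM with tamoxifen, and 3.70 to 32.4 CPM with a median of 10.6 CPM without (-0.16 ± 0.22). The groups of both overlapped over nearly their whole range, and neither passed, at an adjusted p of 0.629 and 0.717 in edgeR.

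Of the basement membrane chains, Col4a1 and Col4a2 had lower medians without passing the test. Col4a1 had 32.0 to 358 CPM with a median of 155 CPM with tamoxifen, and 89.3 to 520 CPM with a median of 194 CPM without. Col4a2 had 17.8 to 187 CPM with a median of 90.7 CPM with tamoxifen, and 48.4 to 259 CPM with a median of 108 CPM without. Of the 29 tamoxifen tumours, 9 lay above the median of the group without tamoxifen for Col4a1 and 7 for Col4a2, though the groups overlapped. Log2 fold changes were -0.51 ± 0.17 (edgeR adjusted p = 0.0639) and -0.41 ± 0.16 (edgeR adjusted p = 0.149). Col4a1 passed without tamoxifen replicate 28 (-0.56, edgeR adjusted p = 0.0317) and in DESeq2 (-0.50, adjusted p = 0.0438). The multiplexin Col18a1, also of basement membranes, had medians of 79.4 CPM with and 97.4 CPM without tamoxifen (-0.38 ± 0.19, edgeR adjusted p = 0.260), while Col15a1 was even (-0.07 ± 0.23). Endothelial markers summed to medians of 219 CPM with and 223 CPM without tamoxifen, and pericyte and mural markers to 274 and 281 CPM. Of 11 endothelial markers 8 had a negative fold change, with a median of -0.12. Astrocyte, oligodendrocyte and Purkinje markers were higher with tamoxifen, as counted below, and Col4a1 had a correlation of -0.58, -0.59 and -0.60 with them over the 59 tumours. The part of these cells in the Col4a1 values was not tested. The other tested type IV chains were at 0.35 ± 0.27 (Col4a4), 0.13 ± 0.15 (Col4a6) and -0.05 ± 0.12 (Col4a5), which gave the 5 a median of -0.05.

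Col23a1, a membrane-spanning collagen, had the second smallest p. It had 0.886 to 20.8 CPM with a median of 8.84 CPM with tamoxifen, and 1.4999 to 20.1 CPM with a median of 5.204 CPM without. In 22 of 29 tamoxifen tumours it lay above the median without tamoxifen. Its log2 fold change was 0.66 ± 0.21 (edgeR adjusted p = 0.0618), and it passed with title period as a covariate (0.73, edgeR adjusted p = 0.0330) and in DESeq2 (0.66, adjusted p = 0.0369). Titles hold dates, and title period splits them at month 8 of the year written 16.

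Of 10 fibrillar members tested, 8 had a negative fold change and none was called. Col11a1 had a median of 57.1 CPM with tamoxifen and 69.1 CPM without (-0.32 ± 0.15, edgeR adjusted p = 0.212). Col3a1 had medians of 45.6 and 62.5 CPM (-0.29 ± 0.21), Col1a1 of 20.6 and 23.3 CPM (-0.30 ± 0.25) and Col1a2 of 31.8 and 35.5 CPM (-0.10 ± 0.21). Col5a3, a fibre-nucleating chain, was positive at 0.30 ± 0.15 (edgeR adjusted p = 0.269), as was Col11a2 at 0.38 ± 0.21. Of the rest of the 10 smallest p-values, Col8a1, a network collagen of vessel walls and the eye, was at -0.83 ± 0.33 (edgeR adjusted p = 0.148), Col12a1 at -0.45 ± 0.21 (0.212) and Col9a2 at -0.27 ± 0.12 (0.209).

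**Figure D4:**
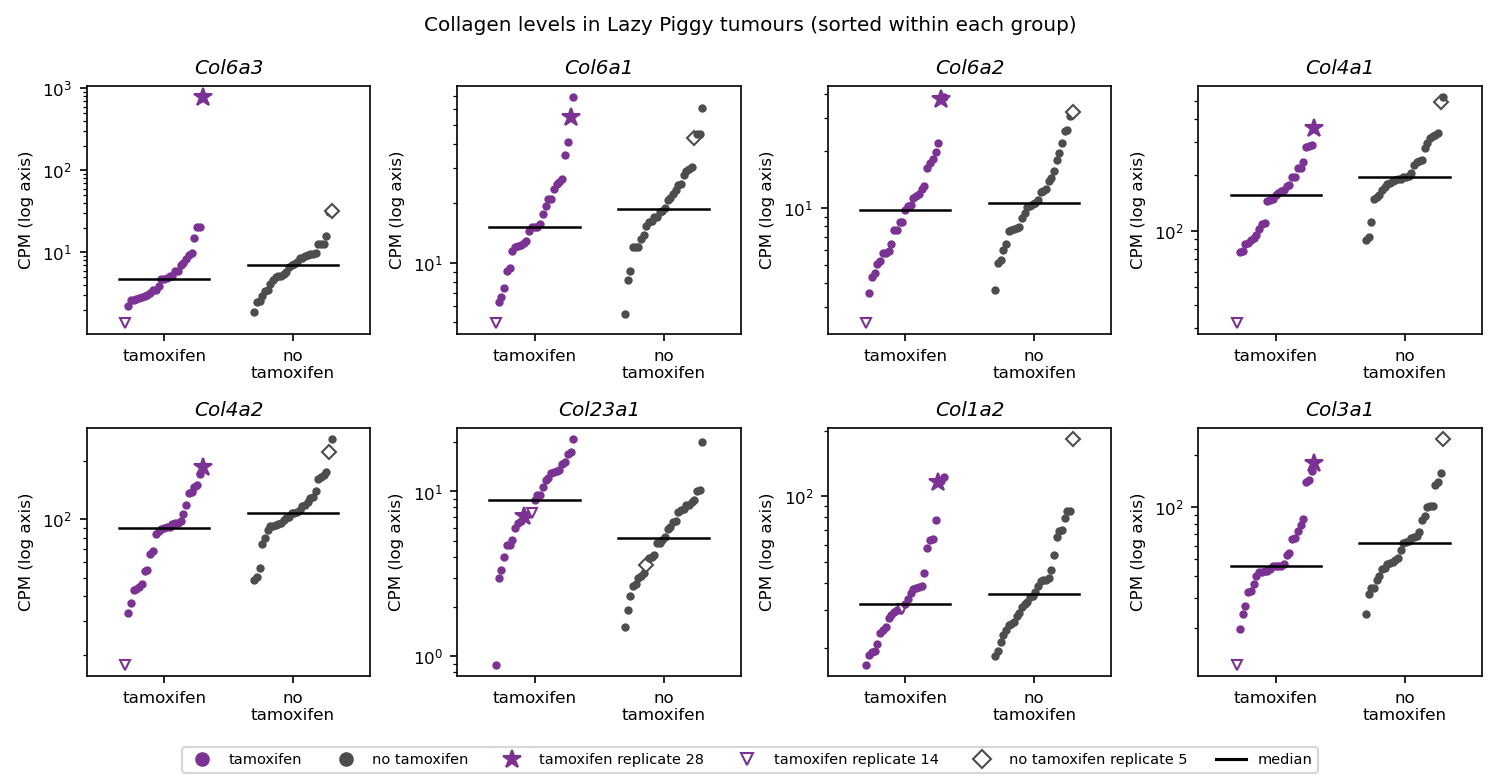
CPM on a log axis of 8 collagen genes in Lazy Piggy tumours, tamoxifen (n = 29) left of no tamoxifen (n = 30), sorted within each group, with a line at the median; the star is tamoxifen replicate 28, the open triangle tamoxifen replicate 14 and the open diamond no tamoxifen replicate 5. The star stands far above every other tumour for Col6a3, at 778 CPM, but among the highest tumours for Col6a1, Col6a2 and Col4a1.

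Of all genes tested, 3.06% were called higher, and each of 5 partner lists held 1 such gene. Of 10 tested genes of maturation and crosslinking 1 rose, Adamts3, a protease that trims procollagen (1.31 ± 0.34, edgeR adjusted p = 0.0223). Of 8 receptors 1 rose, Lair1, an inhibitory collagen receptor of immune cells (0.50 ± 0.14, edgeR adjusted p = 0.0364). Of 14 basement membrane partners 1 rose, Sparc, a collagen-binding glycoprotein (0.50 ± 0.14, edgeR adjusted p = 0.0283), while 11 had negative values. Of 13 genes of fibril-associated matrix 1 rose, the proteoglycan Fmod (0.74 ± 0.22, edgeR adjusted p = 0.0434), and of 9 degradation genes 1 rose, the inhibitor Timp4 (0.89 ± 0.21, edgeR adjusted p = 0.0142). None of the 20 folding and secretion genes was called by edgeR, with 2 at an unadjusted p of 0.05, and no gene of these lists fell. Markers of normal cerebellum rose beside them: 6 of 9 for astrocytes, 8 of 9 for oligodendrocytes and 6 of 6 for Purkinje cells. Astrocyte markers summed to medians of 2635 CPM with and 1729 CPM without tamoxifen, and their part in these calls was not tested.

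Tamoxifen tumours and tumours without it were spread unevenly over the title dates, so the effect was also taken within each period. Within the earlier-dated titles Col6a3 had a log2 fold change of 2.91 (edgeR adjusted p = 0.233) and within the later ones -0.51 (edgeR adjusted p = 0.534), and tamoxifen replicate 28 is of the earlier period. Col4a1 was at -0.32 (edgeR adjusted p = 0.557) and -0.65 (edgeR adjusted p = 0.224), and Col23a1 at 0.65 (edgeR adjusted p = 0.367) and 0.80 (edgeR adjusted p = 0.201). The difference of the tamoxifen effect, later minus earlier titles, was called for 0 of 39 members, as for 0% of the 14450 genes tested. At an unadjusted p of 0.05 it was higher for 0 members (against 2.27% of genes), and 3 differed (7.69%, against 5.16%), all of them lower (against 2.89%): Col6a3 (-3.40 ± 1.05), Col2a1, the main cartilage chain (-1.65 ± 0.58), and Col9a2 (-0.57 ± 0.25), each with an adjusted p of 0.924 in edgeR.

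Single tumours were then described. A member was taken as outlying in a tumour when its log2 CPM lay above the median of the 59 labelled tumours by over 2 and by over 5 scaled median absolute deviations. Among the 34 tested members 1 had such a tumour (2.94%), against 1.02% of all genes tested. It was Col6a3 in tamoxifen replicate 28, with 5353 counts, or 778 CPM with an exact 95% interval of 757 to 799 CPM that covers counting error only. This was 141 times the median of 5.53 CPM and 24.1 times the next highest tumour, no tamoxifen replicate 5. Col6a3 alone made up 30.9% of that tumour's summed collagen reads of 2515 CPM, the highest sum of the 59, and the other members still summed to 1737 CPM. Per length, Col6a3 was 5.21 times Col6a1 there, against medians of 0.0915 with tamoxifen and 0.114 without it, and a highest value of 0.597 without it. In that tumour fibroblast and meningeal markers summed to 1155 CPM and pericyte and mural markers to 359 CPM, within the ranges of the other tumours.

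Col10a1, a network collagen known from growth plate cartilage and bone, was listed at 0 in 45 of the 59 tumours, where 3 counts would be 0.346 to 0.511 CPM. With a median and a deviation of 0, every tumour more than 2 above the median counted as outlying: tamoxifen replicate 12 (3.07 CPM) and no tamoxifen replicates 5, 7, 9, 14, 15 and 30 (4.70, 1.81, 1.95, 2.73, 8.38 and 8.52 CPM). The 8.52 CPM of no tamoxifen replicate 30 came from 50 counts. The gene did not pass the filter of the tamoxifen test, and with no filter it was called beside Col6a3.

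No tamoxifen replicate 5 had the highest value of the 59 tumours for 9 of the 41 members. Among them were Col3a1 (245 CPM), Col1a2 (183 CPM), Col1a1 (143 CPM), Col18a1 (304 CPM), Col5a2 (106 CPM), Col11a1 (106 CPM) and Col8a1 (25.7 CPM), so fibrillar chains led. Its fibroblast and meningeal markers summed to 1304 CPM, the highest of the group without tamoxifen. That list includes Pdgfra, which oligodendrocyte precursors also express, and the share of Pdgfra in this sum is not given. Tamoxifen replicate 14 was lowest for 9 members, with Col4a1 at 32.0 CPM, Col3a1 at 12.4 CPM and Col9a3 at 34.8 CPM, and its summed collagen reads of 397 CPM were the lowest of the 59. Its Purkinje markers summed to 7267 CPM, the highest of the tamoxifen group.

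Collagen members varied together in small groups across the 59 labelled tumours. Correlations of log2 CPM are given as a description, since tumours share their depth and composition with every gene. The closest pairs were chains of the same molecule. Pearson's r was 0.974 for Col4a1 with Col4a2, 0.938 for Col6a1 with Col6a2 and 0.935 for Col1a1 with Col1a2. Next came 0.806 for Col3a1 with Col1a2, 0.792 for Col15a1 with Col6a1, 0.789 for Col3a1 with Col1a1 and 0.759 for Col3a1 with Col6a2. Of 820 pairs 16 were above 0.7, and the median was 0.188. Other chains that share a molecule were less close. They had 0.692 for Col4a5 with Col4a6, 0.614 for Col5a1 with Col5a2 and 0.016 for Col11a1 with Col11a2. Col6a3 had 0.53 with Col6a1 and 0.61 with Col6a2, with tamoxifen replicate 28 among the tumours. The same pairs had 0.98 and 0.96 in the 10 SmoM2 tumours, which are fewer and come from the other table. Among type IX chains r was 0.572 for Col9a3 with Col9a1, 0.467 for Col9a2 with Col9a1 and 0.274 for Col9a3 with Col9a2, while Col9a3 had 0.698 with Col11a1. Col11a2 was negative with several of them, at -0.461 with Col3a1 and -0.383 with Col1a1. Among the network collagens it had -0.506 with Col8a1 and -0.512 with Col10a1, which was at 0 in 45 of the 59 tumours.

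**Figure D5:**
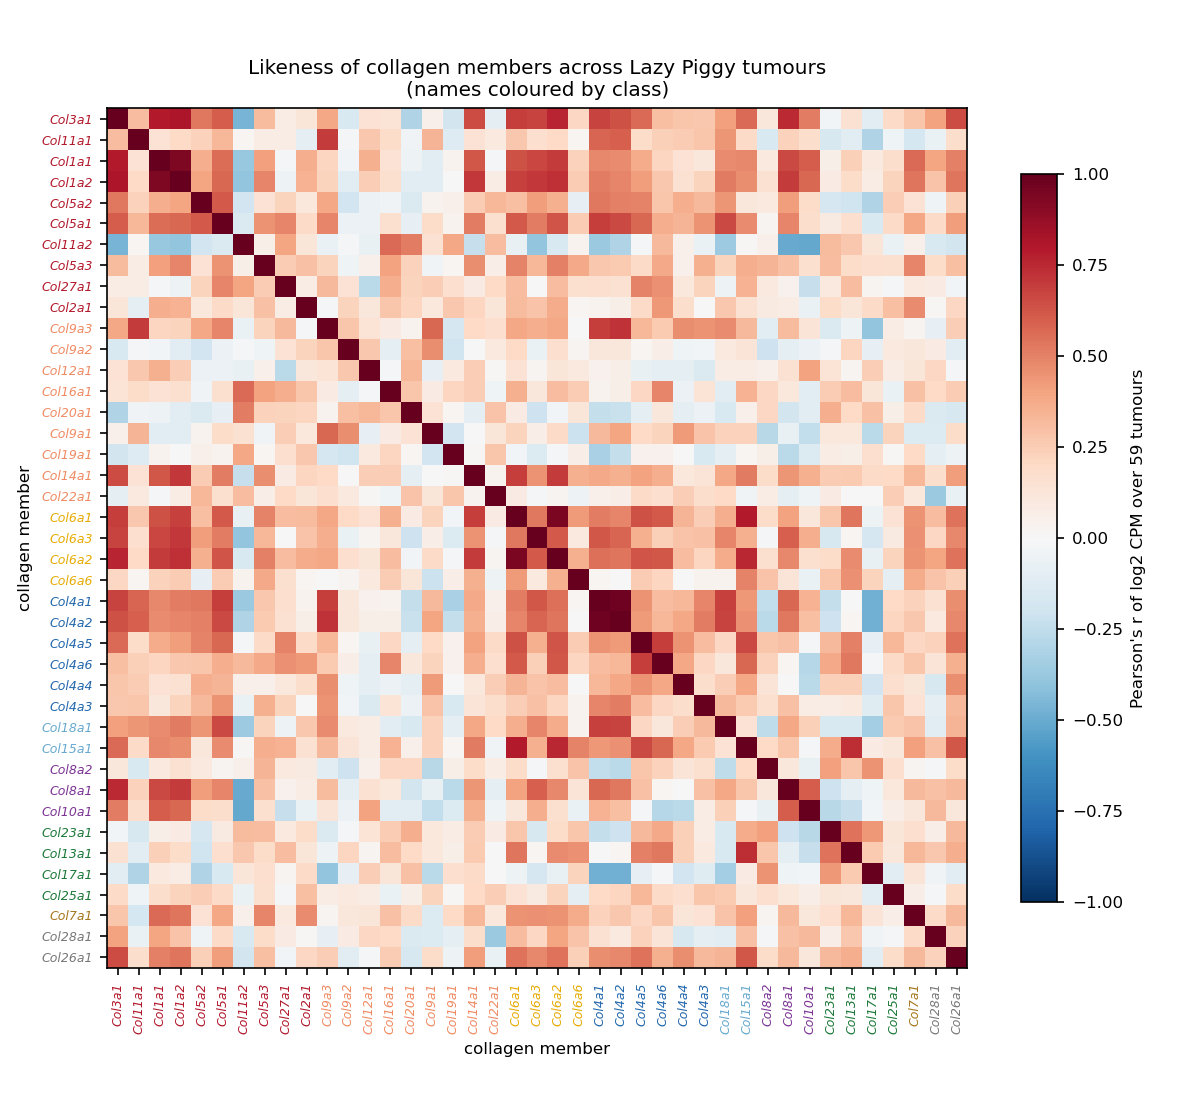
Pearson's r of log2 CPM between collagen members across the 59 labelled Lazy Piggy tumours, ordered and coloured by class. Dark red squares join Col1a1 with Col1a2, Col6a1 with Col6a2 and Col4a1 with Col4a2, while the row of Col11a2 is blue against Col3a1, Col1a1 and Col1a2.

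Members differed in the cell type markers they went with, also within a class, and these differences were not tested. Over the same 59 tumours, r with the mean log2 CPM of endothelial markers was 0.676 for Col4a1, 0.689 for Col4a2 and 0.698 for Col18a1, but 0.504 for Col4a3 and 0.120 to 0.245 for Col4a4, Col4a5 and Col4a6. With fibroblast and meningeal markers r was 0.681 for Col1a2, 0.636 for Col1a1, 0.623 for Col3a1, 0.616 for Col6a1, 0.622 for Col6a2 and 0.663 for the fibril-associated Col14a1. The fibrillar chains Col11a1, Col27a1 and Col11a2 had -0.029, -0.044 and -0.256 with them. With granule lineage markers r was 0.601 for Col9a3 and 0.688 for Col11a1, but 0.345 for Col9a1, 0.068 for Col9a2 and -0.072 for Col11a2. Over the 59 tumours Col17a1 had 0.712 with oligodendrocyte and 0.706 with Purkinje markers. Col8a2, a collagen of the cornea, had 0.754 with choroid plexus markers there.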

How the data were processed

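Poly-A RNA libraries were made with a TruSeq kit, per the labels' protocols, and STAR 2.5.4b and the build mm9 are named in the submitters' processing notes. The authors deposited raw counts per gene in 1 table for each model, under Ensembl IDs; no source used here gives the counting tool, its use of strand or its annotation. Among Lazy Piggy rows, 10 named no gene and held 0.0012% of counts; they were left out. IDs were matched to symbols and exon lengths from GENCODE M21, and 99.26% of Lazy Piggy and 99.99% of SmoM2 counts had a symbol. CPM were taken over all gene rows, and log2 CPM with a prior count of 2. Depth was 23923453 to 39387125 counts in SmoM2 and 5869618 to 8667344 in Lazy Piggy libraries, so members under 1 CPM rest on few reads in the second table. Between any 2 libraries counts differed by more than sampling noise, with a chi-square per degree of freedom of at least 8.89 over genes that averaged at least 50 counts, so none was counted as a repeat.

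Groups came from the genotype and treatment fields. Each contrast was fitted on the whole table with edgeR 4.0.16 in R 4.3.3: TMM scaling, filterByExpr with a minimum count of 10, the quasi-likelihood test and Benjamini-Hochberg adjustment over all genes tested, with a threshold of 0.05. Title form was a covariate in the knockout contrast. Alternatives were DESeq2 1.42.0, RLE size factors, no filter, sex read from Y-linked genes, title period, no title form and leaving out each library. Scripts were tested on simulated data. Tables and figures were made with Python 3.11.15, pandas 2.3.3, numpy 2.4.6 and matplotlib 3.10.9.

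Named were members past the threshold or, where under 5 passed, up to the 10 of smallest p, the 12 of highest mean CPM, members outlying in a tumour, chains of types I, IV and VI, and up to 3 called genes of each partner list; others named (Col9a3 and Col11a2 among the fold changes, for example) were chosen after their values were seen. Members, lists and tests were chosen with earlier results of these data known. 1 Lazy Piggy library with no treatment label entered no contrast.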

Additional observations from a re-analysis of the deposited data

Results flagged for a closer look

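Col18a1, the multiplexin that holds endostatin, had 219 CPM in wild-type replicate 6, against 75.2 to 106 CPM in the other 6 wild-type tumours. Its gap to the next value was 0.788 of the whole range, above Dixon's critical value of 0.568 for 7 libraries. This was 1 of 19 members looked at, and chance alone flags about 1 in 20 groups.

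The Lazy Piggy library with no treatment label, which entered no comparison, was unlike the labelled tumours in its markers. Granule lineage markers summed to 74.9 CPM in it, against 3217 to 5829 CPM in those tumours. It had 49.0 CPM of Col25a1, a membrane-spanning collagen of neurons, from 370 counts (exact 95% interval 44.1 to 54.2 CPM, counting error only). The labelled tumours reached 7.02 CPM with tamoxifen and 6.10 CPM without it. The same library had 8.60 CPM of Col19a1, a fibril-associated chain (interval 6.64 to 11.0 CPM). The highest labelled values were 4.00 CPM with tamoxifen and 2.85 CPM without it.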

How the results depend on the processing

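In the knockout contrast 0 members were called by edgeR in the main analysis, with each of 5 other settings and in all 10 fits without 1 library. At an unadjusted p of 0.05, 6 members were lower, against 11 with no filter, 8 in DESeq2, 9 with sex and 18 without title form. When 1 library was left out, the count ran from 1 (knockout replicate 1 or wild-type replicate 2) to 14 (wild-type replicate 1). For these settings no share of all genes is given beside the count. Of the fold changes of named members, 129 of 130 without 1 library and 65 of 65 under other settings kept their direction and side of the threshold; Col1a1 turned to 0.025 without wild-type replicate 2, in a range from -0.43 over the fits without 1 library.

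For tamoxifen, 1 member was called in the main analysis, 2 with no low-count filter, 2 in DESeq2, and 0 with sex as a covariate or within the earlier or the later titles. Without 1 library the count ran from 0 to 3, with 49 of 59 fits at 1; it was 0 without tamoxifen replicate 14, 3 without tamoxifen replicate 8 or no tamoxifen replicate 11, and 2 without tamoxifen replicates 15, 16, 24 or 25 or no tamoxifen replicates 3, 4 or 6. All genes called ran from 138 to 783 there, and were 913 in DESeq2 and 673 with title period, against 501. Col6a3 reversed in DESeq2 (-0.52), within later titles (-0.51) and without tamoxifen replicate 28 (-0.51, the low end of a range that reached 2.03 over the fits without 1 library), and lost its call at 1.39 with sex and 1.01 with title period. Within earlier titles Col9a2 (0.12), Col1a2 (0.078), Col6a1 (0.015) and Col6a2 (0.14) reversed, as did Col1a2 without no tamoxifen replicate 5 (0.061, in a range from -0.19). The cause was not tested for any of these, except that the earlier and later titles hold fewer tumours.

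A minimum of 1 CPM left 37 members in each table, and TMM-scaled CPM 41. The 8 outlying values became 10 with a limit of 1 log2 unit and 11 with a prior count of 0.5. Members under about 0.5 CPM in Lazy Piggy tumours rest on a few counts, and their absence in a tumour was not detectable at this depth. No paired analysis was possible because replicate numbers were given in accession order and pair no samples.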

Other observations

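The Lazy Piggy library with no treatment label entered no comparison. Its summed collagen reads came to 228 CPM, against 397 to 2515 CPM in the 59 labelled tumours. Of the 41 members, 2 lay above, 18 below and 21 within the range of the group without tamoxifen. Col4a1 had 31.6 CPM, Col9a3 8.07 CPM, Col18a1 1.72 CPM and Col3a1 0.529 CPM. Granule lineage markers summed to 74.9 CPM there, with Atoh1 at 0, against 3217 to 5829 CPM in the labelled tumours. Oligodendrocyte markers summed to 6294 CPM and astrocyte markers to 6370 CPM. Purkinje markers summed to 1368 CPM, with Pcp2 and Ppp1r17 at 0.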
